A study of Homo sapiens with 18 samples.

Results

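Chromosome 13 was followed in chromatin immunoprecipitation sequencing of 2 histone marks, H3K4me3 and H3K27me3, in V16D prostate cancer cells. All peaks on chromosome 13 were taken from the 12 peak lists, peaks of a mark that shared at least 1 base were merged, and regions called in at least 2 of the 6 lists of the mark were kept. This gave 368 of 20708 H3K4me3 regions and 875 of 58789 H3K27me3 regions. From the authors' tables of differential sites, 34 of 1857 H3K4me3 sites and 15 of 1140 H3K27me3 sites lay on the chromosome. These sites were chosen by the authors' comparison of the same groups, at a false discovery rate of up to 0.05, and the chromosome was picked with the direction of its sites in view. The direction of the sites and the ranks of the peaks are therefore given as a description, with no test. V16D is a castration-resistant line derived from LNCaP, a human prostate adenocarcinoma line. V16D/CTL cells carried a control lentivector, and V16D/H19 cells carried a lentivector that expressed the long non-coding RNA H19 from a CMV promoter. Each group had 3 replicates, which the authors describe as biologically independent. Each replicate had an H3K4me3 library, an H3K27me3 library and an input library. The inputs entered only through the authors' peak calling and were not analysed here, and no readout of the H19 transcript itself was used.

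H3K4me3 marks the starts of active or poised genes and is laid down mostly at promoters rich in CG dinucleotides. H3K27me3 is laid down by Polycomb repressive complex 2 and spreads over silenced developmental genes, often as wide domains. Promoters that hold both marks are called bivalent and are typical of developmental regulators. Chromosome 13 is poor in genes for its length, with long gene-poor stretches in its middle, and carries developmental factors such as SOX1, SOX21 and PDX1 next to housekeeping genes.

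The promoters below were shown because a large H3K4me3 gain (TNFRSF19), large H3K4me3 losses (SLITRK6 and EFNB2) or differential sites of both marks (GJB2 and SOX21-AS1) lay at or near them. Each runs from 250 bases before to 50 bases after a RefSeq transcription start on GRCh38.p14, 5′ to 3′ on the strand of the gene, and capitals mark CG dinucleotides. TNFRSF19, which encodes a receptor of the tumour necrosis factor superfamily, has an upstream start on the plus strand (chr13:23570162-23570461, 4 CG) and a downstream start on the plus strand (chr13:23579110-23579409, 27 CG). GJB2, which encodes the gap junction protein connexin 26, lies on the minus strand (chr13:20192889-20193188, 33 CG). SOX21-AS1, a non-coding RNA that starts back to back with the transcription factor gene SOX21, lies on the plus strand (chr13:94712466-94712765, 18 CG). SLITRK6, a neuronal transmembrane protein gene, lies on the minus strand (chr13:85799370-85799669, 4 CG). EFNB2, the gene of the guidance ligand ephrin-B2, lies on the minus strand (chr13:106535613-106535912, 49 CG).
TNFRSF19 upstream start: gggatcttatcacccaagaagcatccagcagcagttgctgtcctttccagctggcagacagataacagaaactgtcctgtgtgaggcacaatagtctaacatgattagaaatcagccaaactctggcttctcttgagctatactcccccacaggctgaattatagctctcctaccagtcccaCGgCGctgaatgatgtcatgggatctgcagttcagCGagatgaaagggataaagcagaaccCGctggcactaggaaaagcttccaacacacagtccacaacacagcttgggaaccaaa
TNFRSF19 downstream start: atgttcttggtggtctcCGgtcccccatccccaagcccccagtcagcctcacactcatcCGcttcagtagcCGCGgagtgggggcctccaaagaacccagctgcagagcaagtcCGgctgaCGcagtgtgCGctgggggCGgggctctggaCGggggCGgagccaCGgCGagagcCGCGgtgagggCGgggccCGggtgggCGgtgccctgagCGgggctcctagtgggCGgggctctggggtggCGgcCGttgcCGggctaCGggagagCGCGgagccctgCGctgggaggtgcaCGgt
GJB2: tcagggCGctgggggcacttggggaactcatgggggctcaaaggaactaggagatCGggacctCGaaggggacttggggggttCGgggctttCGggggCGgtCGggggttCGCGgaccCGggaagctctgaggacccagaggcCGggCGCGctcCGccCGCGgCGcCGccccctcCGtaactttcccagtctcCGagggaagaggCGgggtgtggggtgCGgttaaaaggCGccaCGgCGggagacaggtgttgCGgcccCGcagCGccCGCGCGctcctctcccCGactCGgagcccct
SOX21-AS1: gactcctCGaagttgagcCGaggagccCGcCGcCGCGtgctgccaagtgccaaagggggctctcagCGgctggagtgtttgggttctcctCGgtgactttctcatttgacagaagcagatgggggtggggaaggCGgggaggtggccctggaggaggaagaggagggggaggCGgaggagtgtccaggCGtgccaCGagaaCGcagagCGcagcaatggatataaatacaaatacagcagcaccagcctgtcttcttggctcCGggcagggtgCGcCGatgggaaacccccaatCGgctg
SLITRK6: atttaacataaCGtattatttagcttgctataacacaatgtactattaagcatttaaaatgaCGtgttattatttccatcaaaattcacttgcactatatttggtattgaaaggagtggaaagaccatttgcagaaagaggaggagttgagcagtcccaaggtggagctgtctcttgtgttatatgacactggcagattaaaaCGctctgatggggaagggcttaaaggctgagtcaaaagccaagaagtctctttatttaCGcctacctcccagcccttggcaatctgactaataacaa
EFNB2: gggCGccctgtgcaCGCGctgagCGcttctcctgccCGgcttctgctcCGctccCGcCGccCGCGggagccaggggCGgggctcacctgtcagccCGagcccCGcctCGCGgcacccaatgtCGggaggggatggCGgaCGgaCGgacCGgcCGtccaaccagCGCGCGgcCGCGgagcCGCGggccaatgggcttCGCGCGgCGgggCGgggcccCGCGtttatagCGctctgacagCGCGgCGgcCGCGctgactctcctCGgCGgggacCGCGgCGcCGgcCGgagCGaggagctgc

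In H3K4me3, the site at the CG-poor upstream start of TNFRSF19 was among the largest gains and the site at the CG-poor start of SLITRK6 among the largest losses. The CG-rich starts shown for TNFRSF19 and EFNB2 differed by less. Over the 892 RefSeq promoters of the chromosome, the median was 10 CG in 300 bases, and it was 14 CG over the 35116 promoters of all chromosomes. The 276 chromosome 13 promoters with an H3K4me3 peak in all 6 lists and no H3K27me3 peak had a median of 29 CG, and the 12 with H3K4me3 in all 6 lists and H3K27me3 in at least 2 had 34 CG. The 46 promoters with H3K27me3 in at least 2 lists and no H3K4me3 had 15 CG, and the 510 with neither mark had 3 CG. The 23 promoters in sites higher in V16D/H19 had a median of 26 CG and the 16 in lower sites had 24 CG, so the medians of both directions were close.

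The amount of chromosome 13 called as marked overlapped between the groups for both marks. The 3 V16D/CTL lists of H3K4me3 had 381, 367 and 370 chromosome 13 peaks, and the 3 V16D/H19 lists 397, 398 and 350. As a share of the library this averaged 1.81% ± 0.0133 (SD, n = 3) against 1.79% ± 0.0397 (SD, n = 3), and the groups overlapped (exact two-sided permutation test over libraries, p = 0.6). For H3K27me3 the V16D/CTL lists had 789, 1061 and 1101 peaks there, and the V16D/H19 lists 833, 937 and 936. Their shares were 1.43%, 1.53% and 1.52% against 1.48%, 1.51% and 1.49% (exact permutation test, p = 1). V16D/CTL replicate 1 had the shortest H3K27me3 list on the chromosome. The length under H3K27me3 peaks was 0.638, 0.864 and 0.909 Mb for V16D/CTL against 0.617, 0.679 and 0.696 Mb for V16D/H19 (exact permutation test, p = 0.3). Under H3K4me3 peaks it averaged 0.527 Mb ± 0.00894 (SD, n = 3) against 0.535 Mb ± 0.0250 (SD, n = 3), in the same order of groups (exact permutation test, p = 0.7). With 3 libraries against 3 the smallest p that this test allows is 0.1, and Benjamini-Hochberg adjusted p over the 7 group comparisons of measures that the rule did not use lay between 0.817 and 1. The intervals of these differences were not computed, so a p above the threshold does not show that the groups were alike.

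H3K4me3 regions lay mostly at gene starts, whereas H3K27me3 regions were more numerous and mostly away from them. Of the 368 H3K4me3 regions, 276 were called in all 6 lists, and 242 lay within 1 kb of a transcription start, with a median width of 1576 bases. Of the 875 H3K27me3 regions, 142 were called in all 6 lists and 79 lay within 1 kb of a start, with a median width of 1013 bases. At the limit of the rule, the 27 H3K4me3 regions called in exactly 2 lists had a median width of 350 bases and the 117 left out, called in a single list, 249 bases. The 376 H3K27me3 regions called in exactly 2 lists had a median width of 701.5 bases and the 1558 left out 372 bases.

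The direction of the H3K4me3 sites changed along the chromosome. Concentration is on a log2 scale of normalized reads averaged over the libraries of a group by the authors, so it has no replicate error here. Coordinates are on hg38. From the start of the long arm to 45 Mb, 16 of 18 sites were higher in V16D/H19, with a median difference of 0.275 (log2 concentration, V16D/H19 minus V16D/CTL). Beyond 45 Mb, 13 of 16 sites were lower, with a median difference of −0.575. The exceptions before 45 Mb were SKA3, a kinetochore gene, at −0.17, and the antisense RNA FRY-AS1 at −2.53. The exceptions beyond it were a distal site assigned to LINC00550 at 0.97, SOX21-AS1 at 1.31 and NALCN, the sodium leak channel gene, at 0.82. The FRY-AS1 site had a called peak in V16D/H19 replicate 1 alone, so its peak calls did not follow the fall in concentration. The turn was placed after the sites were seen in order. In all, 19 of 34 sites were higher (55.9%), against 426 of 1823 (23.4%) on the other chromosomes. Among the 22 chromosomes with at least 15 sites, this share was the highest, and the other 21 ranged from 13.8% to 48.2%. Of the 368 regions, 19 overlapped a higher site, where 2.2% of all H3K4me3 regions did, and 17 overlapped a lower site, where 7.15% did. Nothing is read from these shares, since the same contrast led to the choice of the chromosome.

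**Figure D1:**
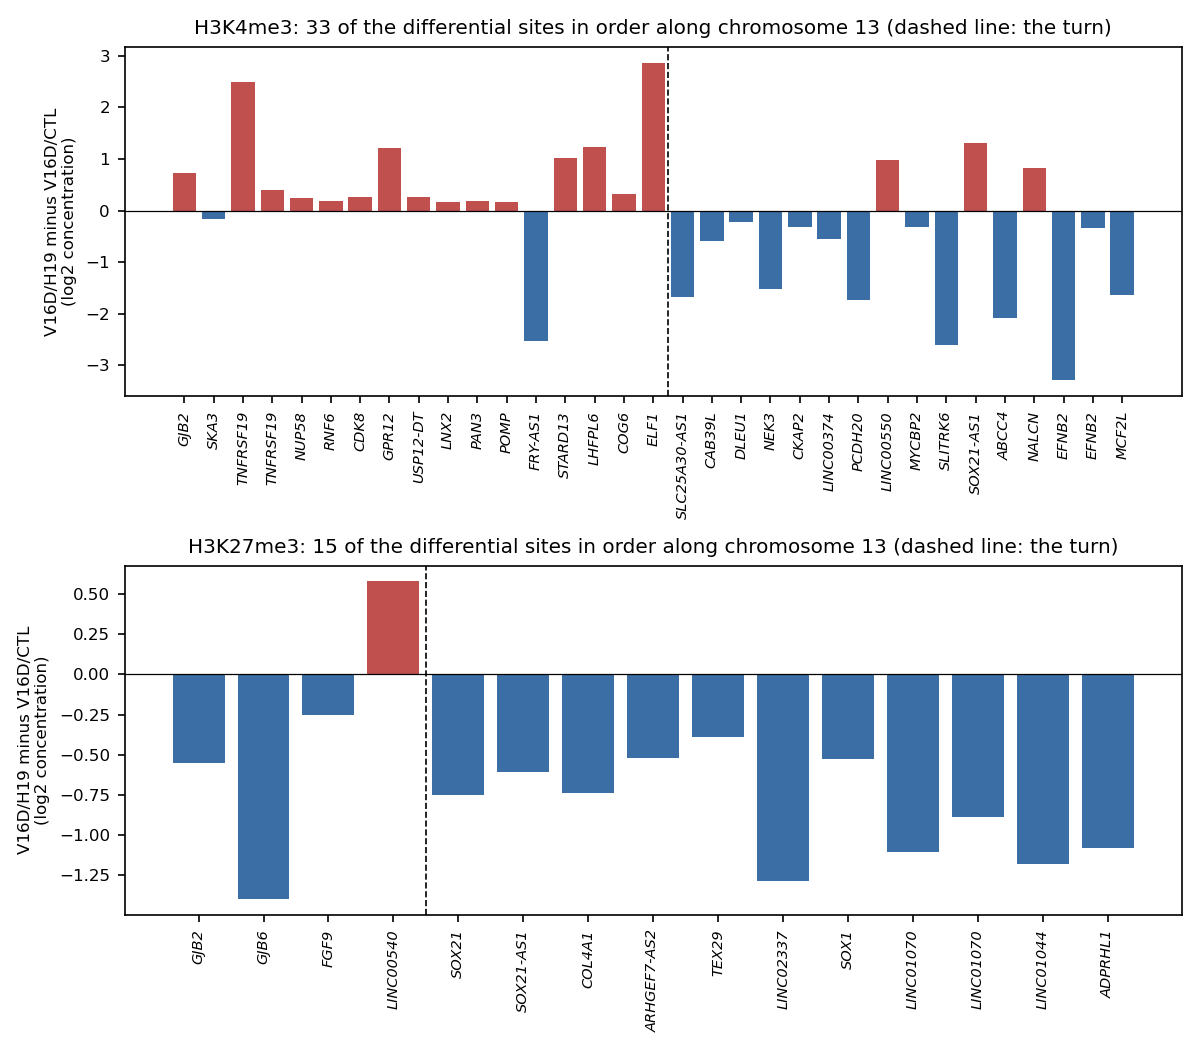
Bars give the difference in log2 concentration (V16D/H19 minus V16D/CTL) at differential sites, in order along chromosome 13 and named by the annotated gene, for H3K4me3 (top, 33 of 34 sites) and H3K27me3 (bottom, 15 sites). Red bars are higher and blue bars lower in V16D/H19, the dashed line marks 45 Mb, and most H3K4me3 bars are red before it and blue beyond it.

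The sites with the strongest H3K4me3 changed direction as the weaker sites did, with small differences. Of the 16 chromosome 13 sites with a V16D/CTL concentration of at least 8, 10 were higher (62.5%), against 8.20% of the 1061 such sites on the other chromosomes. All 10 lay before 45 Mb, where 10 of 11 strong sites were higher, and all 5 strong sites beyond 45 Mb were lower. Of the weaker sites, with a concentration below 8, 6 of 7 before 45 Mb were higher and 8 of 11 beyond it were lower. The rises at the 10 strong sites lay between 0.16 and 0.40 on the log2 scale. POMP, which encodes a proteasome assembly factor, went from 10.38 in V16D/CTL to 10.55 in V16D/H19. LNX2, a ubiquitin ligase gene, had 10.51 and 10.67. CDK8, the kinase of the Mediator complex, had 9.77 and 10.04, and RNF6, another ubiquitin ligase gene, had 9.89 and 10.07. The peaks at these 4 promoters ranked at or above percentile 82.0 in every list, where ranks are percentiles of the authors' −log10 p within a list and 100 is the strongest peak. NUP58, which encodes a nuclear pore protein, had 9.71 and 9.95, PAN3, a subunit of a poly(A) nuclease, had 10.32 and 10.50, and COG6, a Golgi tethering subunit, had 8.71 and 9.04. USP12-DT, a divergent transcript of a deubiquitinase gene, had 9.82 and 10.08. The strong sites beyond 45 Mb were CAB39L at 8.15 and 7.56, the non-coding DLEU1 at 9.78 and 9.56, CKAP2, a spindle protein gene, at 8.99 and 8.68, MYCBP2, a neuronal ubiquitin ligase gene, at 8.84 and 8.52, and the EFNB2 promoter at 9.46 and 9.12. In the whole table, differences of under 0.35 in size stood only at sites with a concentration of at least 8.

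**Figure D2:**
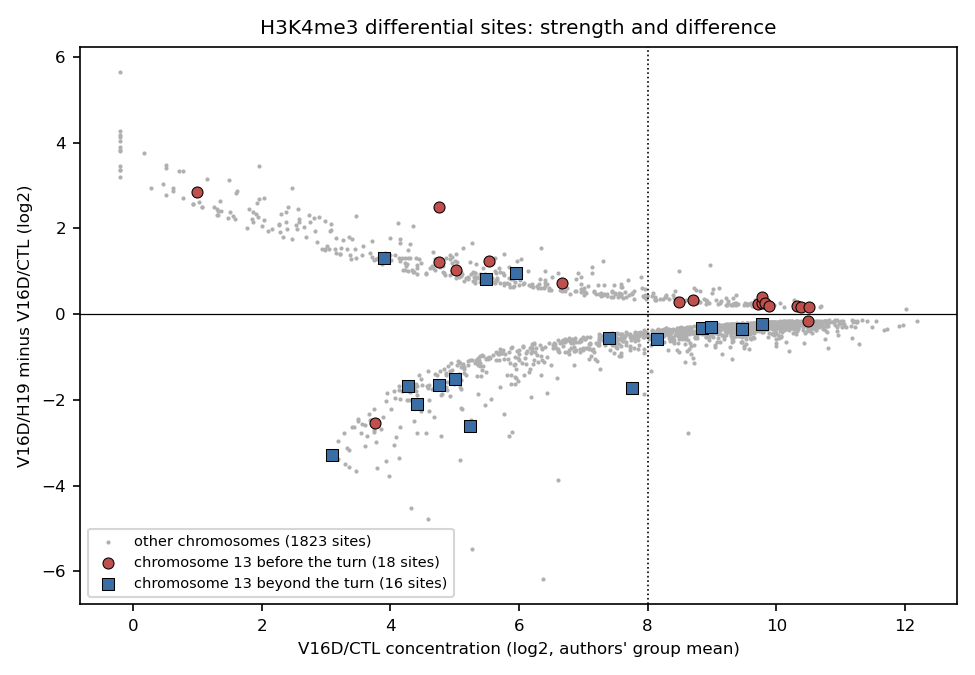
Each point is an H3K4me3 differential site, with its V16D/CTL concentration (log2) on the x axis and the V16D/H19 minus V16D/CTL difference (log2) on the y axis, on other chromosomes (grey, 1823 sites), on chromosome 13 before 45 Mb (red circles, 18 sites) and beyond it (blue squares, 16 sites). Right of the dotted line at 8, red circles sit above 0 except SKA3 at −0.17, all 5 blue squares sit below 0 and most grey points sit below 0.

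The larger H3K4me3 gains fell on weaker sites, all below a V16D/CTL concentration of 8. Of the 19 higher sites, 16 had a peak in all 6 lists, and at 8 of these the 3 V16D/H19 percentiles lay wholly above those of V16D/CTL, while at 0 they lay wholly below. Over all chromosomes, 9.87% of H3K4me3 regions in all 6 lists lay wholly above and 3.62% wholly below. The sites were chosen as different between these same libraries, so the count is no separate support for them. ELF1, an ETS-family transcription factor gene, had the highest difference, from a concentration of 0.99 in V16D/CTL to 3.85 in V16D/H19. The peaks at this ELF1 site were weak, at percentiles 8.45 and 6.02 in V16D/H19 replicates 1 and 2, with none in the other 4 lists. The authors' annotation places this site at an ELF1 promoter, within 1 kb of a start. Its peaks lay 35854 bases from the nearest ELF1 start used here, so the 2 sets of starts differ. The region over an ELF1 start used here had percentiles of 60.7, 56.0 and 54.5 in V16D/CTL against 57.9, 55.2 and 53.3 in V16D/H19. These overlapped, and that region had no differential site. At the upstream start of TNFRSF19 the concentration went from 4.76 to 7.25. There a peak was called in V16D/CTL replicate 3 alone at percentile 9.42, and in V16D/H19 at 33.7, 26.0 and 28.7, so the groups did not overlap. At the downstream TNFRSF19 start, where the concentration went from 9.77 to 10.17, the percentiles were 89.96, 85.6 and 89.8 in V16D/CTL against 83.1, 89.1 and 77.1 in V16D/H19, and overlapped. Read beside the sequences, the start with 4 CG had the larger difference and the start with 27 CG the smaller one.

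GPR12, an orphan G protein-coupled receptor gene, had concentrations of 4.75 and 5.96 and percentiles of 15.4, 16.2 and 18.8 in V16D/CTL against 41.2, 40.5 and 26.4 in V16D/H19. LHFPL6 had 5.53 and 6.76, with percentiles of 24.4, 23.2 and 31.5 against 49.3, 48.0 and 32.2. In both genes the percentiles of the groups did not overlap. STARD13 had 5.02 and 6.04, with percentiles of 30.5, 27.1 and 6.48 against 40.5, 38.7 and 29.7, where the groups overlapped, since V16D/H19 replicate 3 lay below V16D/CTL replicate 1. Beyond 45 Mb, the distal site assigned to LINC00550, 627041 bases away, had percentiles of 24.96, 21.5 and 27.8 against 42.5, 40.6 and 33.1. NALCN had 18.2, 30.5 and 30.4 against 44.2, 42.4 and 39.5. Neither overlapped.

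The larger H3K4me3 losses lay mostly beyond 45 Mb and included genes of neuronal adhesion and guidance. Of the 15 lower sites, 8 had a peak in all 6 lists, 5 had a peak in more V16D/CTL than V16D/H19 lists, and 1, at PCDH20, had wholly lower percentiles. Over all chromosomes, 3.62% of H3K4me3 regions in all 6 lists had wholly lower percentiles in V16D/H19. SLITRK6 went from 5.24 to 2.64. Its promoter had peaks in V16D/CTL at percentiles 7.58, 10.9 and 10.8 and in no V16D/H19 list. PCDH20, a protocadherin gene to which the site was assigned by gene identifier, went from 7.75 to 6.02, with percentiles of 45.7, 42.3 and 42.2 against 31.1, 31.2 and 32.1, which did not overlap. ABCC4, which encodes a cyclic nucleotide and drug exporter, had an intronic site that went from 4.41 to 2.32. This ABCC4 site had peaks at 27.2, 14.1 and 22.6 in V16D/CTL and only in V16D/H19 replicate 1, at 4.65. The ABCC4 promoter itself had an H3K4me3 peak in all 6 libraries and no differential site. The region over it went the other way in rank, with percentiles of 55.4, 56.9 and 57.8 in V16D/CTL against 63.2, 59.1 and 67.6 in V16D/H19, which did not overlap. A site 3665 bases into EFNB2 went from 3.09 to −0.20, the lowest concentration in the table, and no library had a peak there. SLC25A30-AS1 had a difference of −1.68, NEK3, a kinase gene, −1.51, and MCF2L −1.64. MCF2L had peaks at 22.9, 6.52 and 16.7 in V16D/CTL and at 0.932 and 1.96 in V16D/H19 replicates 1 and 2, and none in replicate 3.

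**Figure D3:**
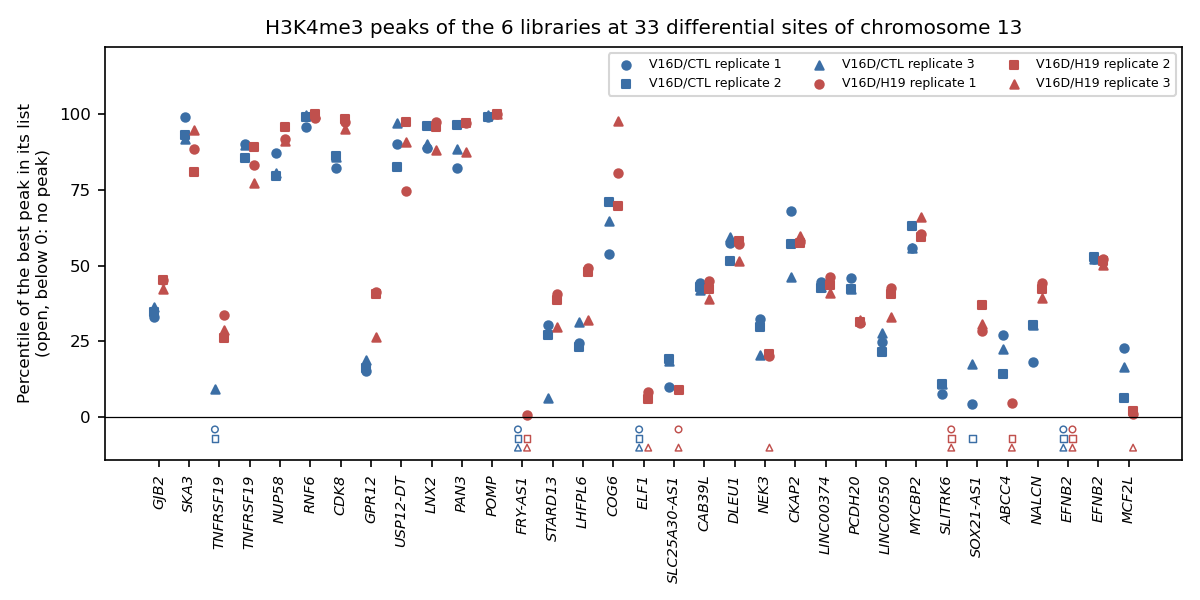
For 33 of the 34 H3K4me3 differential sites, in order along chromosome 13, points give the percentile of the best overlapping peak within its own list in the 3 V16D/CTL (blue) and 3 V16D/H19 (red) libraries, and open symbols below 0 mark libraries with no peak there. Red points lie above blue ones at GPR12, LHFPL6 and NALCN, below them at PCDH20, and among them at most strong sites.

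Percentiles over all regions did not turn with the sites. At regions with a peak in all 6 lists, the mean percentile of V16D/H19 was above that of V16D/CTL at 91 of 119 H3K4me3 regions before 45 Mb, with a median shift of 2.95 percentile points, and at 110 of 157 beyond it, with a median shift of 1.68. Over the 15811 such regions of all chromosomes the median shift was 1.39. Ranked by the fold over input in place of the −log10 p, the mean was higher at 69 of 119 and 90 of 157 regions. At 43 of the 276 regions all 3 V16D/H19 percentiles lay above all 3 of V16D/CTL (15.6%), where 9.87% of regions over all chromosomes did, and at 2 they lay wholly below (0.725%), where 3.62% did. Of these 43 regions, 35 overlapped no differential site. Among them, HSPH1, a heat shock protein gene, had percentiles of 76.4, 83.1 and 79.0 in V16D/CTL against 94.9, 92.5 and 96.1 in V16D/H19. The 2 wholly lower regions were those at PCDH20 and at MRPS31, a mitochondrial ribosomal protein gene. The median percentile of chromosome 13 regions minus that of all other chromosomes averaged −9.84 ± 0.411 (SD, n = 3) for V16D/CTL against −8.77 ± 0.213 (SD, n = 3) for V16D/H19. In median, chromosome 13 regions ranked below those of other chromosomes in every library, and the ranges of the groups did not overlap. This separation depended on the processing. The difference between the groups was 1.07 as reported, 0.685 with lists of equal length and 1.25 ranked by fold over input, and in the latter 2 settings the ranges overlapped. The rank was not even along the chromosome. Between 20 and 30 Mb the V16D/CTL medians were 71.5, 68.8 and 74.9, against 53.2, 50.4 and 51.4 over the whole chromosome. The V16D/H19 medians there were 80.4, 76.6 and 80.4, against 55.0, 55.4 and 51.7.

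H3K27me3 sites were almost all lower in V16D/H19. Of the 15 sites, 14 were lower, with a median difference over all 15 of −0.74, and on the other chromosomes 1029 of 1125 were lower. The exception was LINC00540, at which concentration went from 6.86 to 7.44. Of the 875 regions, 26 overlapped a lower site, where 2.83% of all H3K27me3 regions did, and 2 a higher site, where 0.323% did. Nothing is read from these shares either. GJB6, the connexin 30 gene beside GJB2, had the lowest difference, from 5.38 to 3.98, with peaks at percentiles 98.2, 68.8 and 67.7 in V16D/CTL and only in V16D/H19 replicate 3, at 61.9. FGF9, a fibroblast growth factor gene under the widest H3K27me3 region of the chromosome, went from 9.66 to 9.41. Its region of 27773 bases ranked at 99.7, 99.0 and 99.4 in V16D/CTL against 96.5, 98.7 and 99.1 in V16D/H19, so the groups overlapped. The next widest regions called in all 6 lists lay over the homeobox gene GSX1 (15586 bases) and nearest to LOC124903132 (15275 bases), with no differential site on either.

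Beyond 45 Mb all 11 H3K27me3 sites were lower, and 9 of them lay beyond 110 Mb. They included COL4A1, a basement membrane collagen gene, at −0.74, the neural transcription factor gene SOX1 at −0.53, ARHGEF7-AS2 at −0.52, and a distal site assigned to TEX29 at −0.39. ADPRHL1 had −1.08, LINC02337 −1.29, LINC01044 −1.18, and LINC01070 had sites at −1.11 and −0.89. At LINC02337 the percentiles were 85.8, 82.8 and 80.1 in V16D/CTL and 11.5 in V16D/H19 replicate 2, with no peak in V16D/H19 replicates 1 and 3. A distal site assigned to SOX21 had a difference of −0.75 and percentiles from 87.6 to 93.4 in V16D/CTL against 23.9, 92.4 and 91.7 in V16D/H19, so only V16D/H19 replicate 1 lay apart. At the 36 regions beyond 45 Mb in all 6 lists, the mean percentile was higher in V16D/H19 at 8, with a median shift of −10.4, and at the 106 regions before it at 53, with a median shift of 0.0733. At the 27 regions beyond 45 Mb that overlapped no differential site it was higher at 8, with a median shift of −8.61. Over the 36 regions the library medians were 81.3, 84.5 and 84.3 in V16D/CTL against 63.4, 78.1 and 74.2 in V16D/H19, where replicate 1 was lowest. Ranked by fold over input, the direction before 45 Mb turned, with a median shift of −3.72 and 46 of 106 regions higher, and beyond it the median shift was −9.38 with 8 of 36 higher. Over the 10934 such regions of all chromosomes the median shift was −2.03. V16D/H19 percentiles lay wholly below those of V16D/CTL at 18 of the 142 regions (12.7%), where 8.8% of regions over all chromosomes did, and wholly above at 4 (2.82%), where 4.01% did. Those 4 regions were nearest to FGF9, TEX26-AS1, SPART and F7, the coagulation factor VII gene. At the F7 region the percentiles were 43.2, 49.6 and 19.8 in V16D/CTL against 78.1, 72.3 and 93.6 in V16D/H19. Among the 18 lower ones, a region 2018 bases from SOX1 had 91.4, 90.9 and 79.5 against 79.4, 19.4 and 19.2, and one 5451 bases from FGF9 had 93.2, 56.88 and 87.9 against 6.40, 56.82 and 15.7. The SOX1 and FGF9 ranges were separated only narrowly, by single libraries.

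H3K27me3 was gathered in a short stretch of the chromosome. Of the 875 regions, 544 (62.2%) lay between 20 and 40 Mb, as did 104 of the 142 called in all 6 lists. Single windows of 1 Mb held up to 97 regions, and the densest lay at ATP8A2, a phospholipid flippase gene (25 to 26 Mb, 84 regions), and at DCLK1, a microtubule-regulating kinase gene (35 to 36 Mb, 97 regions). In the ATP8A2 window 76, 96 and 84 peaks were called in V16D/CTL against 58, 59 and 70 in V16D/H19, which did not overlap. In the window at 35 to 36 Mb the counts overlapped, from 75 to 104 against 102 to 119. As shares of the list they were 0.136%, 0.127% and 0.144% against 0.212%, 0.185% and 0.162%, which did not overlap. Near the end of the chromosome the windows from 110 to 113 Mb held fewer peaks in every V16D/H19 library. At 110 to 111 Mb there were 23, 29 and 34 peaks in V16D/CTL against 14, 16 and 15 in V16D/H19. At 111 to 112 Mb there were 50, 67 and 72 against 35, 49 and 46, and at 112 to 113 Mb 29, 38 and 43 against 17, 20 and 14. The window at 22 to 23 Mb, which holds LINC00540, had 13, 11 and 23 against 28, 29 and 32. Of the 26 chromosome 13 windows with a mean of at least 10 peaks, the share of the list was wholly lower in V16D/H19 in 5, where 18.4% of such windows over all chromosomes were, and wholly higher in 3, where 13.9% were. These numbers of windows were near the shares over all chromosomes.

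**Figure D4:**
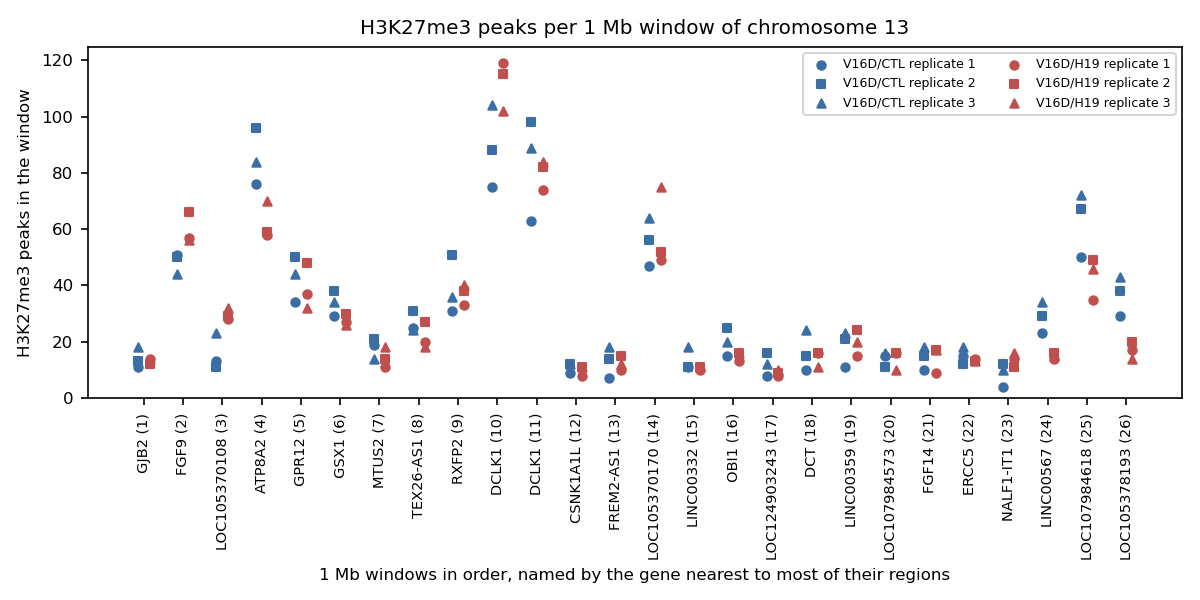
Points give the number of H3K27me3 peaks in each of 26 windows of 1 Mb, in order along chromosome 13 and named by the gene nearest to most of their regions, in the 3 V16D/CTL (blue) and 3 V16D/H19 (red) libraries. Red points lie below all blue points in windows 4, 24, 25 and 26, above them in windows 2 and 3, and the highest counts are in windows 4, 10 and 11.

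Both marks met at 42 H3K4me3 regions (11.4% of them) and 42 H3K27me3 regions (4.8%). Within a replicate, H3K4me3 peaks that shared bases with an H3K27me3 peak numbered 26, 29 and 33 for V16D/CTL against 26, 28 and 25 for V16D/H19 (exact permutation test, p = 0.3). Of the 31 such regions with H3K4me3 in all 6 lists, the mean H3K4me3 percentile was higher in V16D/H19 at 29, with a median shift of 4.93, and at 172 of the 245 other regions, with a median shift of 1.78. The regions with both marks were also weaker in H3K4me3, with a median V16D/CTL percentile of 28.5 against 54.1 at the others. Whether the larger shift went with the second mark or with the lower rank was not tested, and the shares over all chromosomes were not computed. Of the 19 higher H3K4me3 sites, 4 overlapped an H3K27me3 region, at GJB2, GPR12, LHFPL6 and SOX21-AS1, and of the 15 lower sites 0 did. The same share for the differential sites of all chromosomes was not computed, and the sites were chosen on this contrast, so nothing is read from these counts. Differential sites of both marks overlapped at GJB2 and SOX21-AS1, in both with higher H3K4me3 and lower H3K27me3. At GJB2 the H3K4me3 concentration went from 6.66 to 7.38, with percentiles of 33.2, 34.8 and 36.5 in V16D/CTL against 45.1, 45.2 and 42.1 in V16D/H19, which did not overlap. Its H3K27me3 concentration went from 7.75 to 7.20, with percentiles of 93.5, 98.5 and 99.7 against 97.2, 97.5 and 97.7, which overlapped. At SOX21-AS1 the H3K4me3 concentration went from 3.90 to 5.21, with peaks at 4.38 and 17.7 in V16D/CTL replicates 1 and 3 and at 28.3, 37.01 and 30.6 in V16D/H19. The H3K27me3 concentration there went from 7.73 to 7.12, with percentiles of 84.7, 99.8 and 98.8 against 74.6, 99.1 and 77.6, which overlapped.

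The gene lists differed in the marks their promoters carried, and within each list the counts of the groups overlapped. Of 68 chromosome 13 genes in 6 lists, 52 had an H3K4me3 peak within 1 kb of a start in all 6 libraries and 12 in none. For H3K27me3, 11 had a peak in all 6 libraries and 48 in none, and 5 genes held both marks in every library. The number of list genes with an H3K4me3 peak averaged 53.3 ± 0.577 (SD, n = 3) for V16D/CTL against 54 ± 1 (SD, n = 3) for V16D/H19 (exact permutation test, p = 0.7). With an H3K27me3 peak it averaged 17 ± 2.65 (SD, n = 3) against 16 ± 1.73 (SD, n = 3) (exact permutation test, p = 0.6). All 12 housekeeping genes, such as HMGB1, POLR1D, GTF3A and RPL21, had H3K4me3 in every library and no H3K27me3. No differential site was assigned to any of them, but the H3K4me3 site assigned to LNX2, at 0.16, covered the POLR1D start. Of 12 cell cycle and DNA repair genes, 11 had H3K4me3 in every library. RB1, which encodes the retinoblastoma protein, and BRCA2, which encodes a recombination protein, had no differential site, while CDK8 had a higher and CKAP2 a lower one. CCNA1, a cyclin gene used mainly in the germ line, had H3K27me3 in every library and no H3K4me3.

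Of 12 developmental transcription factor genes, 8 had H3K4me3 in all 6 libraries and 3 had H3K27me3 in all 6. PDX1, ZIC2 and KLF5 held H3K4me3 alone, MAB21L1 held H3K27me3 alone, and SOX21 held both in every library. GSX1 had H3K27me3 in all 6 libraries. Its H3K4me3 region, 906 bases from the start, was also called in all 6, at percentiles of 7.82 to 18.4 in V16D/CTL against 17.1 to 30.1 in V16D/H19, which overlapped, but the peaks of V16D/CTL replicates 1 and 2 ended beyond 1 kb of the start and were not counted. Lower H3K27me3 sites were assigned to SOX21 and SOX1 of this list, and that of SOX21 was distal. The lower H3K27me3 site assigned to SOX21-AS1 covered the SOX21 start, and the higher H3K4me3 site assigned to SOX21-AS1 lay beside it. Of 12 neuronal adhesion and guidance genes, 10 had H3K4me3 in every library, and PCDH20, SLITRK6 and EFNB2 together had 4 differential sites, all lower, where 1412 of the 1857 H3K4me3 sites of all chromosomes and 13 of the 16 beyond 45 Mb were lower. Of the 68 genes, only SLITRK6 had its promoter called in every library of 1 group while the other group had no call, for either mark. NBEA and DCLK1 held both marks in every library. Of 12 ligand, receptor and feedback genes, 5 had H3K4me3 and 5 H3K27me3 in every library. FLT3 and FGF9 held both, EDNRB, FLT1 and FGF14 held H3K27me3 alone, and TNFRSF19, SPRY2 and IRS2 held H3K4me3 alone. Of 8 epithelial and prostate cancer genes, 6 had H3K4me3 in every library and 0 had H3K27me3, with RNF6 at 0.18 and the intronic ABCC4 site at −2.09 as their differential sites, while FOXO1 and TSC22D1 had none.

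**Figure D5:**
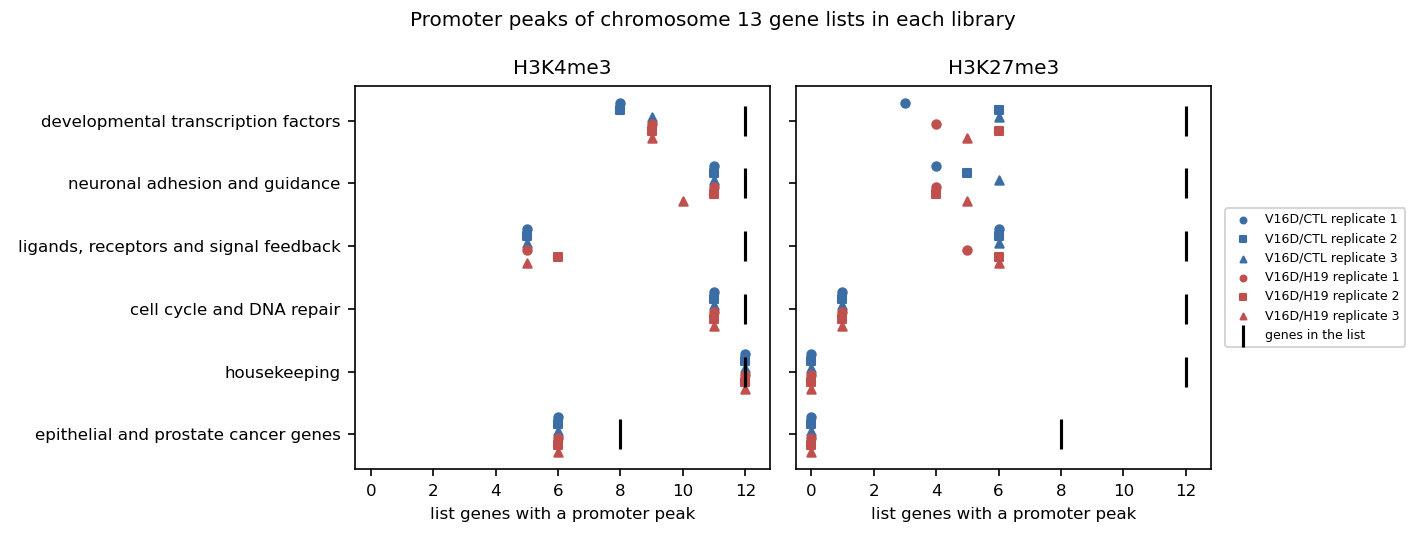
Points give how many genes of each chromosome 13 list had an H3K4me3 (left) or H3K27me3 (right) peak within 1 kb of a transcription start in each library, V16D/CTL in blue and V16D/H19 in red, and black ticks give the size of the list. The colours overlap in every row, and housekeeping genes reach 12 of 12 for H3K4me3 and 0 for H3K27me3.

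Few regions were called in every library of 1 group and in none of the other. For H3K4me3 there were 3 of 368 in V16D/H19 (0.815%), where 0.903% of regions over all chromosomes were, and 3 in V16D/CTL (0.815%), where 0.41% were. Those of V16D/H19 lay nearest to LINC00368, LOC105370304 and LINC00374, at mean percentiles of 16.9, 16.4 and 16.4. Those of V16D/CTL lay nearest to LOC124903192, LOC105370176 and SLITRK6, at 14.1, 13.3 and 7.28. All 6 were weak peaks in their lists. For H3K27me3 there were 11 of 875 in V16D/H19 (1.26%), where 0.98% of regions over all chromosomes were, and 18 in V16D/CTL (2.06%), where 1.97% were. These shares were near those of all chromosomes. The highest ranked of V16D/CTL lay nearest to LINC02337 at a mean percentile of 82.9, NBEA at 75.6, LINC00567 at 65.1, CCDC169 at 63.1 and LINC00445 at 54.9. The highest ranked of V16D/H19 were 2 regions nearest to LOC105370161 at 59.7 and 54.6, and regions nearest to WASF3 at 58.6, GPC5 at 52.7 and CCNA1 at 52.5.

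The libraries carried the promoter marks of luminal prostate cells. All 7 luminal genes (KLK2, KLK3, KRT8, KRT18, TMPRSS2, FOLH1 and HOXB13) had H3K4me3 within 1 kb of a start in every library, although the KRT8 start used lies beside KRT18 and cannot be told apart from it. None of the 4 leukocyte markers and neither of the 2 endothelial markers with a start in the tables used (CDH5 and VWF) had H3K4me3 in any library. Of 3 fibroblast markers, COL1A1 held both marks in every library and DCN and LUM had no H3K4me3.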

How the data were processed

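Per the labels, the authors sequenced 3 V16D/CTL and 3 V16D/H19 replicates per mark with 6 inputs. The submitters' processing notes name hg38, MACS2, DiffBind and ChIPseeker, and the aligner is not given in the sources used here. The authors called narrow H3K4me3 and broad H3K27me3 peaks per replicate against input. Each deposited list gives a fold over input (a ratio) and −log10 p and q values, which depend on sequencing depth, so peaks were compared by percentile of −log10 p within a list. The deposited tables hold log2 concentrations as the authors' group means, used here, and a fold change, p-value and false discovery rate of the same comparison, not used. Read depths and inputs were not analysed, so no counting interval was computed.

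The chromosome, gene lists and marker lists were chosen with earlier results of these data known. Peaks were merged at 1 shared base. Starts were those of the RefSeq promoter table (GRCh38.p14) and 5′ ends of coding RefSeq genes. Named genes were list members with a site or a group-specific promoter, otherwise up to 4 per list, the 10 highest and 10 lowest differences per table, genes with sites of both marks, 5 group-specific regions per direction and the 3 widest H3K27me3 regions. Others, such as HSPH1, MRPS31, F7, further list examples and the strong sites, were named after their values were seen, as were the 45 Mb turn, the concentration of 8 and the 1 Mb windows. Groups were compared by exact two-sided permutation over 20 assignments of 6 libraries (Python 3.11.15, numpy 2.4.6, pandas 2.3.3, scipy 1.17.1), and the p-values measure the spread between these replicates. No 2 of the 12 lists were identical. A differential H3K4me3 site is counted but not reported by name here. Merging and counting were tested on simulated peaks. Alternatives were a −log10 q of at least 5, lists of equal length, merging within 1 kb, ranking by fold, promoters of 2 kb, 3 of 6 lists, overlap of at least 0.5 of an H3K4me3 peak, 5 Mb windows, a replicate block and leaving out each library.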

Additional observations from a re-analysis of the deposited data

How the results depend on the processing

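Results that turned, or that moved by more than the spread between replicates or, for counts, by over 1.5 times, are given here, with some smaller moves. With peaks of a −log10 q of at least 5, the H3K27me3 share differed by 0.519 percentage points (V16D/H19 minus V16D/CTL) in place of −0.00211, the H3K4me3 share by −0.00309 in place of −0.0213, and H3K27me3 covered length by −0.0249 Mb in place of −0.140. H3K4me3 regions called only in V16D/CTL then numbered 5, and H3K27me3 regions called only in 1 group 1 for V16D/CTL and 0 for V16D/H19. With lists of equal length, the H3K27me3 share differed by 0.00242, H3K4me3 list promoters by 0, H3K4me3 median percentile by 0.691 in place of 2.36, H3K4me3 regions called in 1 group only numbered 6 for V16D/CTL and 5 for V16D/H19, and 14 were wholly higher in V16D/CTL. Merging within 1 kb gave 7 H3K27me3 regions wholly higher in V16D/H19. Ranked by fold, 7 H3K4me3 regions were wholly higher for V16D/CTL and 27 for V16D/H19, and 2 H3K27me3 regions in V16D/H19. Promoters of 2 kb gave differences of −0.667 for H3K4me3 and 0.667 for H3K27me3 list genes. Sites with a difference of at least 0.5 numbered 9 higher for H3K4me3, and at least 1 gave 6 higher and 8 lower for H3K4me3 and 0 higher and 5 lower for H3K27me3. In at least 3 lists, 499 H3K27me3 regions were kept. Of 5 Mb windows, 7 held more higher than lower H3K4me3 sites, and of 10 Mb windows 2. A turn at 50 Mb, added after the data were seen, put 4 lower H3K4me3 sites before it. The causes were not tested.

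Leaving out each library in turn, the H3K27me3 difference in share ranged from −0.0334 to 0.0154 and turned positive without V16D/CTL replicate 2 or 3 or V16D/H19 replicate 1 or 3 (0.0154, 0.0116, 0.00401 and 0.000317). The H3K27me3 percentile against other chromosomes ranged from −2.56 to 0.401 and turned without V16D/CTL replicate 2. The H3K4me3 difference in share ranged from −0.0348 to 0.00155 and turned without V16D/H19 replicate 3. H3K27me3 covered length ranged from −0.223 to −0.0870 Mb, median percentile from −6.78 to −1.90, list promoters from −2.5 to 0, and H3K4me3 peaks on H3K27me3 from −4.67 to −1.17. H3K4me3 covered length ranged from 0.000716 to 0.0230 Mb, median percentile from 1.72 to 4.02, percentile against other chromosomes from 0.861 to 1.56, and list promoters from 0.167 to 1.17. With fewer libraries to meet the rule, no count fell. H3K4me3 regions called only in V16D/CTL or only in V16D/H19 numbered 3 to 8 each, and those wholly higher 4 to 14 for V16D/CTL and 54 to 91 for V16D/H19. H3K27me3 regions called only in V16D/CTL numbered 28 to 72 and only in V16D/H19 16 to 38, and those wholly higher 22 to 29 and 10 to 14.

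With the replicate number as a replicate block, all differences keep their values, such as −0.0213 percentage points for the H3K4me3 share, and exact p over 8 assignments lay between 0.25, the smallest possible, and 1 over the 7 comparisons of measures that the rule did not use. Same-numbered libraries shared little beyond a number, with correlations of −0.00644 to 0.0286 over 6 pairs, and 4 of 6 libraries correlated best with their own number.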
